A study of Mus musculus with 2 samples.

Results

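Vascular endothelial growth factors and angiopoietins are the secreted proteins that build and maintain blood and lymph vessels, and their receptors are tyrosine kinases of the vessel wall. The genes described here are the ligands Vegfa, Vegfb, Vegfc, Vegfd and Angpt1 and the receptors Flt1, Kdr, Flt4 and Tek. They were taken by symbol and make up 9 of the 53700 features in the count matrices. They were measured by single-nucleus RNA sequencing of quadriceps muscle, which extends the knee. The mice were on the C57BL/6N strain and 3 months old. One group was PTRF KO, that is, without PTRF (current symbol Cavin1), a coat protein of caveolae, the small pits of the plasma membrane that are abundant in endothelium, fat cells and muscle fibres. The other group was wild type (WT). Each genotype had 1 library. No difference is therefore checked by a replicate, no test between genotypes was made, and intervals cover counting error only. For neither library do the sources used here give the number or the sex of the mice, nor how the PTRF allele was made.

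In this family, VEGF-A is the main driver of capillary growth. It acts through Kdr, the principal signalling receptor of endothelium, and is bound tightly by Flt1, which acts largely as a trap. VEGF-B also binds Flt1. VEGF-C and VEGF-D act on Flt4, the receptor of lymphatic endothelium, and angiopoietin 1 activates Tek and steadies vessels already formed. Muscle fibres are themselves a major source of VEGF-A, and oxidative fibres, which carry more capillaries, make more of it than glycolytic ones.

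Transcripts were counted by unique molecular identifiers (UMIs). The knockout matrix had 16052317 UMIs in 7766 barcodes, and the WT matrix 9746980 UMIs in 10280 barcodes. The nuclei kept were 7762 in the knockout and 10272 in WT, with medians of 1562 and 703 UMIs, and 24 barcodes occurred in both libraries. Cavin1 had 2 UMIs in the knockout library and 75 in WT, or 0.125 and 7.70 CPM (counts scaled to the library total). Xist, transcribed in female nuclei, had 4358 UMIs in the knockout and 4 in WT, while Y-linked genes had 7096 and 3962, so that the knockout library held nuclei of both sexes. Ribosomal RNA of Rn18s took 2.90% of knockout and 8.07% of WT UMIs. Nuclei were clustered without the 9 genes, and each class was named from marker lists that hold none of them. Myonuclei-like nuclei made up 69.9% of the knockout library and 68.3% of WT. Most knockout myonuclei fell in clusters 13, 12, 0 and 3, and most WT myonuclei in clusters 5, 4 and 6. Fibro-adipogenic-like nuclei, the fibroblast-like stroma of muscle, numbered 584 in the knockout and 374 in WT, macrophage-like nuclei 239 and 134, mural-like nuclei 87 and 109, and endothelial-like nuclei 249 and 35. Adipocyte-like nuclei numbered 1076 in the knockout and 11 in WT by this clustering and are described without a ratio. The WT count depends on how clusters were drawn and named. Unnamed cluster 14, with 238 WT nuclei, scored 1.97 for adipocyte markers where a name took 2. It also had 0 adipocyte markers among its leading genes, where a name required a marker. With that library clustered alone, 258 WT nuclei were adipocyte-like. Endothelial-like counts depended on the clustering too. Clustered alone, the knockout gave clusters of 187 and 87 nuclei and WT 1 cluster of 671. Levels of a class are CPM of all its UMIs. Each log2 ratio has the knockout over WT, with 0.5 UMI added to each sum and an exact 95% interval.

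Vegfa transcripts were lower per UMI in knockout than in WT myonuclei, and their highest levels in both libraries were in nuclei led by Myh1 or Myh2. The gene (ENSMUSG00000023951) lies on the minus strand at chr17:46016993-46032369 of GRCm38 and overlaps no other gene in the GENCODE M21 annotation. Both of its start regions are printed first, with that of Vegfb, because these are the ligands at lower levels in knockout myonuclei that had over 100 UMIs there in each library. The sequences are RefSeq's on GRCm38.p6, 250 bases before and 50 after a start, read on the gene's strand. Capitals mark the core of the hypoxia-inducible factor element (ACGTG or GCGTG) and the GC box (GGGCGG), on either strand.
Vegfa, chr17:46025114-46025413, minus strand: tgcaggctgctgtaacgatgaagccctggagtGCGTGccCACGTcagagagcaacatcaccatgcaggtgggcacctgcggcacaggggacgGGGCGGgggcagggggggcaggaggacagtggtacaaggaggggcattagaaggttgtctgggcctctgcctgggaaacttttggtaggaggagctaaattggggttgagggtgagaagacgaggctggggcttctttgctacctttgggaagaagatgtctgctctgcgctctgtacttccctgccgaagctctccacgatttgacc
Vegfa, chr17:46032328-46032627, minus strand: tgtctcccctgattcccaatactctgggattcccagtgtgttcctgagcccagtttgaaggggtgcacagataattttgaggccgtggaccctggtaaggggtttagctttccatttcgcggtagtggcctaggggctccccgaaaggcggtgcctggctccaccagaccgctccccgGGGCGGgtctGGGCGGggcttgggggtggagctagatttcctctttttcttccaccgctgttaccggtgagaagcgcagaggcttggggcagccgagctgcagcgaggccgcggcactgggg
Vegfb, chr19:6987602-6987901, minus strand: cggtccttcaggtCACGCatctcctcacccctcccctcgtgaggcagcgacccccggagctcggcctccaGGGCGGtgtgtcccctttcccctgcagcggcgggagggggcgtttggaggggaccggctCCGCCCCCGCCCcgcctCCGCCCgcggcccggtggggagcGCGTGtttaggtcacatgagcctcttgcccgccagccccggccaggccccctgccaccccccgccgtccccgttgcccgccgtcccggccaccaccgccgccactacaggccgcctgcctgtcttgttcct
The first Vegfa window held 2 hypoxia core matches and 1 GC box, the second 0 and 2, and the Vegfb window 2 and 4. The hypoxia core occurs in 43.8% and the GC box in 35.7% of the 32851 windows of this length, so these matches describe the letters and mark no site.

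Knockout myonuclei-like nuclei held 4854 Vegfa UMIs, or 391 CPM (95% interval 381 to 403), against 4238 UMIs, or 591 CPM (574 to 609), in WT. The log2 ratio was -0.60 (-0.65 to -0.54). Muscle fibres were then separated by the adult myosin heavy chain gene with the most UMIs in each nucleus, Myh4 for glycolytic IIB fibres, Myh1 for IIX, Myh2 for oxidative IIA and Myh7 for slow fibres. In Myh1-led nuclei Vegfa stood at 1055 CPM in the knockout and 1150.4 CPM in WT, with a log2 ratio of -0.13 (-0.24 to -0.01), which was 0.023 among nuclei with Y-linked UMIs and no Xist (Y-marked, against Xist-marked for the reverse). In Myh2-led nuclei it stood at 803 CPM in the knockout and 954 CPM in WT, with a log2 ratio of -0.25 (-0.41 to -0.09), which was -0.04 (-0.27 to 0.18) in Y-marked nuclei. In Myh4-led nuclei the levels were 268 CPM in the knockout and 386 CPM in WT, with a log2 ratio of -0.52 (-0.61 to -0.43). The difference per fibre type was thus smaller than the pooled one, and largest in Myh4-led nuclei, where it was -0.54 (-0.67 to -0.41) in Y-marked nuclei.

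The fibre types were unequally represented. Myh4-led nuclei numbered 4253 in the knockout and 4435 in WT, Myh1-led nuclei 565 and 942, and Myh2-led nuclei 278 and 603. Of the UMIs of the 4 adult myosin heavy chain genes in myonuclei, Myh4 took 80.6% in the knockout and 66.9% in WT. With knockout levels weighted to the WT fibre mix, a setting chosen after the data were seen, the Vegfa log2 ratio over all myonuclei was -0.26. Fewer nuclei led by Myh1 and Myh2, in which Vegfa was highest, went with the lower pooled level. Myh7-led nuclei were few, 36 in the knockout with 524 CPM and 14 in WT with 254 CPM from 3 UMIs, and their log2 ratio of 0.84 had an interval of -0.60 to 3.38.

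**Figure D1:**
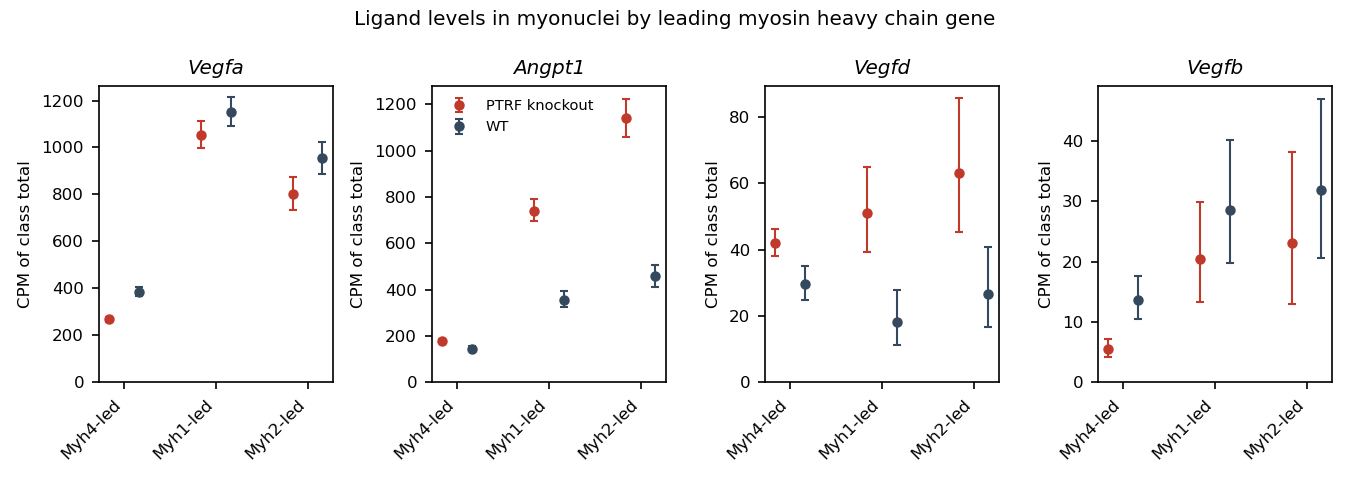
Levels of 4 ligands in myonuclei led by Myh4, Myh1 or Myh2, knockout left of WT in each pair. Points are CPM of the class total in 1 library and bars are exact 95% Poisson intervals; Vegfa runs between 268 and 1150.4 CPM, and Angpt1 in Myh2-led nuclei reaches 1140.1 CPM in the knockout against 457 CPM in WT.

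Within clusters 0, 3, 4 and 12 the Vegfa levels of the genotypes lay close together. Clusters are drawn on expression, so nuclei that share one are partly alike by construction. Not every myonuclear cluster is described here: cluster 13, with 1690 knockout and 24 WT nuclei, and cluster 6, with 83 and 1527, are among those left out. In cluster 4, which Myh2 helps to define, Vegfa was at 1076 CPM in 173 knockout nuclei and 1031 CPM in 2095 WT nuclei. In cluster 3 it was at 970.4 CPM in 789 knockout nuclei and 996 CPM in 56 WT nuclei, and in cluster 0 at 613 and 631 CPM. Cluster 12 held 210.1 CPM in the knockout and 207 CPM in WT. The ratios of these 4 clusters on the log2 scale ran between -0.04 and 0.06, and each interval included 0. Cluster 5, the largest WT cluster, differed, with 181 CPM in 136 knockout nuclei and 350.1 CPM in 2565 WT nuclei, a log2 ratio of -0.93 (-1.55 to -0.41).

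Outside the fibres, Vegfa was lower in knockout fibro-adipogenic-like nuclei, with 121 UMIs (168 CPM) against 105 UMIs (326 CPM) in WT. The log2 ratio was -0.95 (-1.34 to -0.56), while the median over all genes of that class was 0.25. Muscle transcripts were found in every class, and the pan-myonuclear marker genes summed to 37057 CPM in knockout and 65803 CPM in WT fibro-adipogenic-like nuclei. Per 1000 pan-myonuclear UMIs, the stroma held 4.54 Vegfa UMIs in the knockout and 4.95 in WT, against 3.70 and 5.35 in myonuclei. Their part in the stromal level was not tested. Adipocyte-like nuclei of the knockout, at 366 CPM from 745 UMIs, had 21.2 Vegfa UMIs per 1000 pan-myonuclear UMIs. The corresponding 11 WT nuclei held 4 Vegfa UMIs.

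Leaving out the few Myh7-led nuclei, the order of Vegfa levels in the knockout ran from Myh1-led through Myh2-led, adipocyte-like (366 CPM), Myh4-led (268), mural-like (212), macrophage-like (198) and fibro-adipogenic-like (168) to endothelial-like nuclei (126). From Myh4-led downwards, each class overlapped its neighbour in interval. In WT, Myh1-led and Myh2-led nuclei again led, followed by Myh4-led (386), mural-like (366), fibro-adipogenic-like (326), endothelial-like (263) and macrophage-like nuclei (212), and the last 5 overlapped their neighbours. The mural-like log2 ratio was -0.78 (-1.59 to -0.01) and the macrophage-like one -0.12 (-0.78 to 0.63). After thinning every nucleus to 500 UMIs, which dropped 2055 shallow WT nuclei and 0 knockout nuclei, Vegfa was seen in 39.1% of knockout and 40.9% of WT Myh1-led nuclei. In Myh2-led nuclei it was seen in 34.9% and 37.6%, and in macrophage-like nuclei, the class with the least of it in WT, in 8.79% and 6.80%. Unthinned, the Myh1-led shares were 79.8% and 63.1% at median depths of 1795 and 874.5 UMIs, and the macrophage-like shares 18.0% and 14.9% at 953 and 668 UMIs.

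**Figure D2:**
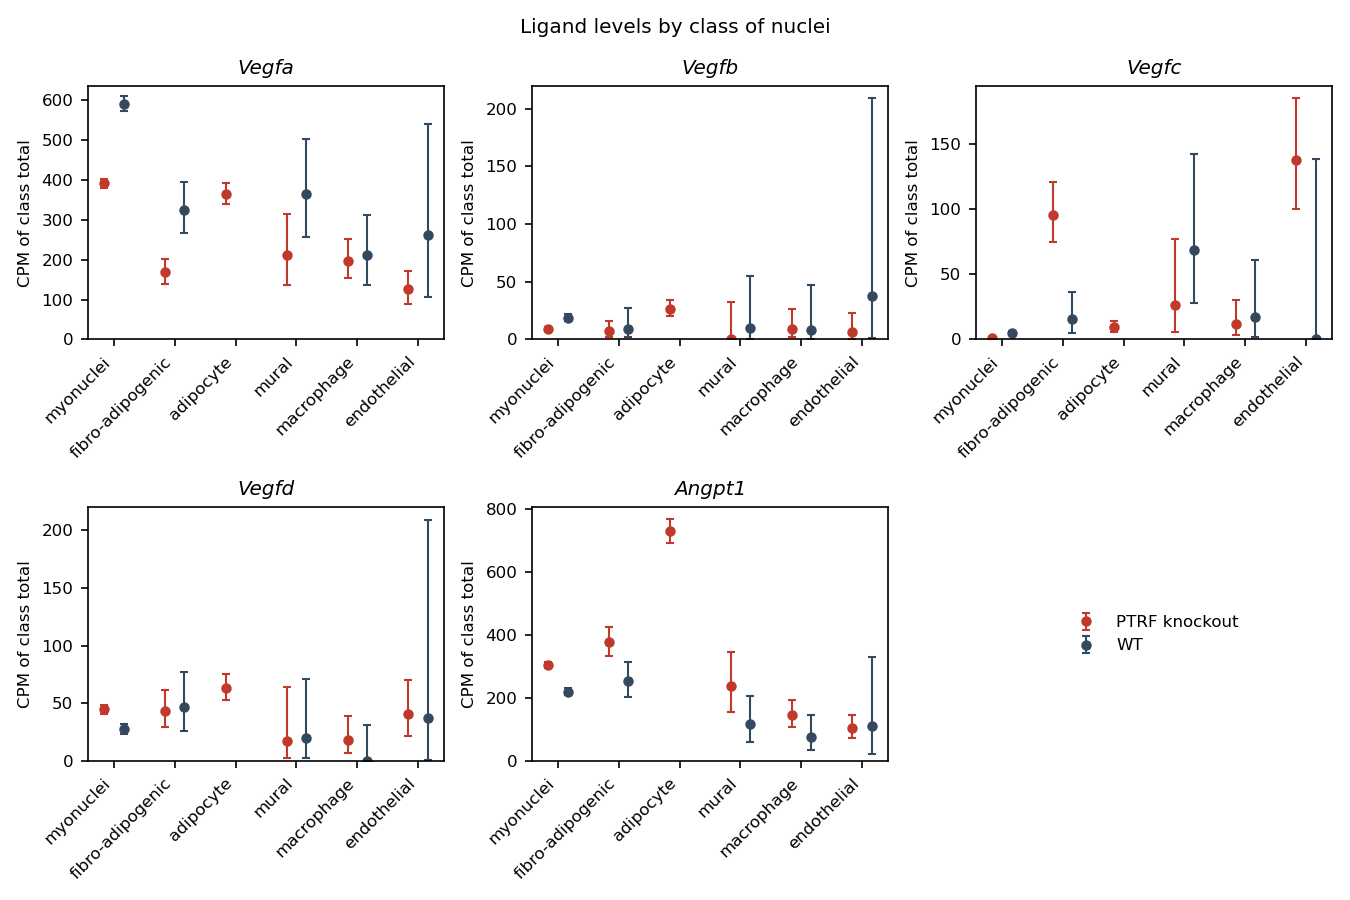
Levels of the 5 ligands in each class of nuclei, knockout left of WT. Points are CPM of the class total and bars exact 95% Poisson intervals; the 11 WT adipocyte-like nuclei are not drawn, and the plots show Vegfa lower in knockout myonuclei (391 against 591 CPM) and Vegfc higher in the knockout stroma (96.0 against 15.5 CPM).

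Vegfb (ENSMUSG00000024962, chr19:6982473-6987651, minus strand) encodes a ligand best known in mouse for its part in lipid handling of heart and muscle rather than in vessel growth. Myonuclei-like nuclei held 107 UMIs in the knockout and 135 in WT, or 8.63 CPM against 18.8 CPM, a log2 ratio of -1.12 (-1.51 to -0.75). In Myh4-led nuclei the levels were 5.51 CPM in the knockout and 13.7 CPM in WT, a log2 ratio of -1.31 (-1.87 to -0.77). Myh1-led nuclei had 20.4 CPM in the knockout and 28.6 CPM in WT, and Myh2-led nuclei 23.1 and 31.8 CPM; both intervals included 0, and the counts were 15 to 33 UMIs. In Y-marked Myh4-led nuclei, with 34 knockout and 18 WT UMIs, the ratio was -0.89 and its interval of -1.73 to 0.04 included 0, and Xist-marked knockout over Y-marked WT nuclei gave 0.10. At the WT fibre mix the Vegfb log2 ratio over all myonuclei was -0.72. Adipocyte-like nuclei of the knockout had 26.5 CPM from 54 UMIs, and the other non-muscle classes held at most 5 UMIs in either library.

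Angpt1 (ENSMUSG00000022309, chr15:42424723-42676977, minus strand) encodes angiopoietin 1, the activating ligand of Tek, and was higher in the knockout. The difference was greater in nuclei led by Myh2 or Myh1 than in those led by Myh4. Over all nuclei Angpt1 had 5698 UMIs in the knockout and 1940 in WT, or 355 CPM against 199 CPM. That value also carries the mix of classes. Of the knockout UMIs, 1487 were in the 1076 adipocyte-like nuclei, a class with 11 WT nuclei by this clustering, and 951 of these were in Xist-marked and 178 in Y-marked nuclei. In myonuclei-like nuclei it had 3794 UMIs (306 CPM) in the knockout and 1578 UMIs (220.2 CPM) in WT, a log2 ratio of 0.47 (0.39 to 0.56). The model gene Gm17473 lies on the opposite strand of Angpt1, and with strand use in counting not given in the sources used here, reads of the pair cannot be told apart.

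By fibre type, Angpt1 in Myh2-led nuclei was at 1140.1 CPM in the knockout and 457 CPM in WT, a log2 ratio of 1.32 (1.14 to 1.51). In Myh1-led nuclei it was at 741 CPM in the knockout and 357 CPM in WT, a log2 ratio of 1.05 (0.89 to 1.22). In Myh4-led nuclei it was at 177 CPM in the knockout and 145 CPM in WT, a log2 ratio of 0.29 (0.16 to 0.42). The intervals of the 3 fibre types did not overlap between Myh4-led nuclei and either of the others. Myh7-led nuclei had 1376 CPM in the knockout from 36 nuclei and 845 CPM in WT from 14 nuclei, and the interval of their log2 ratio, -0.23 to 1.80, included 0. At the WT fibre mix the log2 ratio over all myonuclei was 0.91, so that here the fibre mix moved the pooled value down.

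The Angpt1 difference in Myh4-led nuclei was absent among nuclei marked by Y-linked UMIs without Xist. There, Angpt1 in Myh4-led nuclei was at 178 CPM in both libraries, from 1144 knockout and 332 WT UMIs, a log2 ratio of -0.00 (-0.18 to 0.18). The WT Myh4-led nuclei with neither Xist nor Y-linked UMIs had 122 CPM. Xist had 4 UMIs in the whole WT library, so Xist did not set these nuclei apart from the Y-marked ones. A Y mark needs a Y-linked UMI to be seen, which is likelier in a deeper nucleus, so the subset also selects on depth. The parts of depth and sex were not tested. Within the knockout, Xist-marked over Y-marked Myh4-led nuclei gave a log2 ratio of 0.03 (-0.26 to 0.29). Over all Y-marked myonuclei the ratio of knockout over WT was 0.10 (-0.01 to 0.22), and over myonuclei with at least 500 genes it was 0.26. In the same Y-marked subset, Myh1-led nuclei had 775 CPM in the knockout and 396 CPM in WT, and Myh2-led nuclei 1277 and 531 CPM, with log2 ratios of 0.97 (0.74 to 1.20) and 1.27 (1.03 to 1.51). The higher level in Myh1-led and Myh2-led nuclei was thus also present in Y-marked nuclei alone, while that in Myh4-led nuclei was not. After thinning to 500 UMIs, Angpt1 was seen in 36.7% of knockout and 18.8% of WT Myh2-led nuclei. In macrophage-like nuclei the thinned shares were 4.18% and 4.85%, at median depths of 953 and 668 UMIs. Unthinned, the Myh2-led shares were 70.5% and 30.7% and the macrophage-like shares 8.37% and 6.72%.

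Angpt1 did not always follow Vegfa from cluster to cluster. In cluster 11, led by Col22a1 and Ankrd1 of the fibre ends at the tendon, Angpt1 was at 1176 CPM in 101 knockout nuclei and 737 CPM in 103 WT nuclei, a log2 ratio of 0.67 (0.31 to 1.05). Vegfa in that cluster was near 320 CPM in either library (321 CPM in the knockout and 320.2 CPM in WT). In cluster 15, led by the slow fibre genes Myh7, Tnnt1 and Tnnc1, Angpt1 was at 971 CPM in 70 knockout nuclei and 273 CPM in 57 WT nuclei, a log2 ratio of 1.79 (1.08 to 2.68). Ano4, Hs6st2 and Colq were also among the leading genes of cluster 15. Myh7-led myonuclei numbered only 36 in the knockout and 14 in WT over all clusters, so this ratio is not one of slow fibres alone. In cluster 4 it was at 670.3 CPM in the knockout and 365 CPM in WT, and in cluster 3 at 838 and 443 CPM. Across myonuclear clusters of at least 50 nuclei, Pearson's r of Vegfa with Angpt1 was 0.536 over 10 knockout clusters and 0.355 over 9 WT clusters, which share a library within each value. In single myonuclei thinned to 500 UMIs, Angpt1 was seen in 18.8% of knockout nuclei with a Vegfa UMI and in 10.1% of those without. The WT shares were 11.1% and 7.69%.

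**Figure D3:**
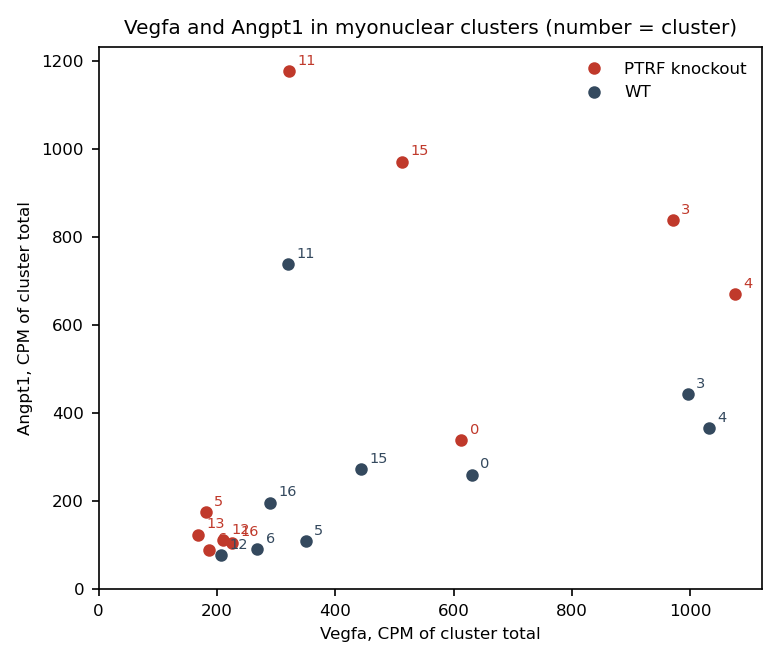
Vegfa (horizontal) and Angpt1 (vertical), both as CPM of the cluster total, in each myonuclear cluster with at least 50 nuclei of a library; numbers are clusters. Clusters 3 and 4 are high for both genes, while clusters 11 and 15 are high for Angpt1 in the knockout at 1176 and 971 CPM with Vegfa at 321 and 512 CPM.

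In the stroma, Angpt1 stood at 378 CPM (272 UMIs) in knockout and 254 CPM (82 UMIs) in WT fibro-adipogenic-like nuclei. The log2 ratio of 0.57 (0.21 to 0.95) compares with a median of 0.25 over all genes in this class. In the Y-marked subset of that class the levels were 372 CPM in the knockout and 363 CPM in WT. Mural-like nuclei, the pericytes and smooth muscle that are a known source of Angpt1, had 238 CPM from 27 UMIs in the knockout and 119 CPM from 12 UMIs in WT, and the interval of the log2 ratio, -0.02 to 2.12, included 0. Adipocyte-like nuclei of the knockout reached 730 CPM from 1487 UMIs, and 28.1% of them had a UMI after thinning. That is 42.3 Angpt1 UMIs per 1000 pan-myonuclear UMIs, against 2.90 in knockout myonuclei and 10.2 in the knockout stroma. The 11 WT adipocyte-like nuclei held 6 Angpt1 UMIs.

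Vegfd (ENSMUSG00000031380, plus strand, chrX:164373378-164402650) encodes a ligand of Flt4 and was also higher in knockout myonuclei. It had 554 UMIs (44.7 CPM) in the knockout and 197 UMIs (27.5 CPM) in WT, a log2 ratio of 0.70 (0.46 to 0.94). In Myh4-led nuclei the levels were 42.2 CPM in the knockout and 29.6 CPM in WT, in Myh1-led nuclei 51.0 and 18.2 CPM, and in Myh2-led nuclei 63.2 and 26.7 CPM. The log2 ratios were 0.51 (0.23 to 0.80), 1.46 (0.76 to 2.27) and 1.23 (0.45 to 2.07), all above 0 and overlapping each other. In the Y-marked subset the Myh4-led ratio was 0.57 (0.16 to 1.03), and that of Myh2-led nuclei was 0.81 from 19 knockout and 14 WT UMIs, with an interval of -0.25 to 1.93. Vegfd is X-linked, and in Y-marked myonuclei alone the log2 ratio was 0.71 (0.37 to 1.07). Fibro-adipogenic-like nuclei held 43.1 CPM in the knockout and 46.5 CPM in WT, with 31 and 15 UMIs. Adipocyte-like nuclei of the knockout held 63.3 CPM from 129 UMIs.

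Vegfc (ENSMUSG00000031520, plus strand, chr8:54077606-54187096), the main lymphatic growth factor, was highest in endothelial-like and stromal nuclei in the knockout. Mural-like nuclei held 3 UMIs (26.4 CPM) in the knockout and 7 UMIs (69.2 CPM) in WT, the highest WT level among the named classes. Fibro-adipogenic-like nuclei held 69 UMIs (96.0 CPM) in the knockout and 5 UMIs (15.5 CPM) in WT, a log2 ratio of 2.50 (1.34 to 4.30). After thinning it was seen in 5.99% of knockout and 0.722% of WT nuclei of that class, against 0.055% and 0.224% of myonuclei, at median depths of 896 and 634 UMIs in the stroma and 1784 and 742 in myonuclei. Unthinned, the stromal shares were 8.56% and 1.34% and the myonuclear shares 0.24% and 0.47%. Within the knockout stroma, 106 nuclei marked by Xist alone held 27 Vegfc UMIs (194 CPM) and 129 nuclei marked by Y-linked UMIs alone held 8 (37.7 CPM). The 78 Y-marked WT nuclei held 0, where a limit of 3 UMIs is 27.9 CPM. The interval of the Y-marked ratio of knockout over WT began at -0.21 and so included 0. Stromal nuclei with neither mark held 33 UMIs (107 CPM) in the knockout and 5 UMIs (23.3 CPM) in WT. Vegfc in the knockout stroma was thus higher in Xist-marked than in Y-marked nuclei, with a log2 ratio of 2.30 (1.19 to 3.71), and sex and genotype cannot be told apart in its pooled difference.

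Endothelial marker genes in the same stroma summed to 389 CPM in the knockout and 316 CPM in WT, and lymphatic markers to 452 and 372 CPM. Endothelial-like nuclei of the knockout held 44 Vegfc UMIs (138 CPM), and the 35 WT nuclei held 0, where a limit of 3 UMIs is 113 CPM. The interval of that ratio included 0. In knockout endothelial-like nuclei without a lymphatic marker UMI the level was 396 CPM from 28 UMIs, and in those with at least 2 lymphatic marker UMIs 31.1 CPM from 7 UMIs. In myonuclei there were 13 UMIs in the knockout and 33 in WT, or 1.05 and 4.61 CPM, a log2 ratio of -2.10 (-3.18 to -1.17).

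The receptors were read mainly in endothelial-like nuclei, of which WT offered only 35 with 26640 UMIs, so each WT level rests on 3 to 17 UMIs. This cluster (17) joined blood and lymphatic endothelium and was led by the lymphatic genes Mmrn1, Prox1, Reln and Pkhd1l1. Flt4, which took no part in the clustering, was also among its leading genes. Endothelial markers summed to 4866 CPM in the knockout and 4580 CPM in WT, and lymphatic markers to 5023 and 3266 CPM. Nuclei with at least 2 UMIs of the 9 lymphatic markers numbered 169 in the knockout and 19 in WT, and nuclei with none numbered 56 and 9. A start region is shown for Flt1 and for Flt4, which marked the blood and the lymphatic side of the cluster. Capitals mark the ETS core GGAA, the letters that the ETS family of endothelial transcription factors recognise, on either strand; it occurs in 96.0% of all windows and so sets neither promoter apart.
Flt1, chr5:147725962-147726261, minus strand: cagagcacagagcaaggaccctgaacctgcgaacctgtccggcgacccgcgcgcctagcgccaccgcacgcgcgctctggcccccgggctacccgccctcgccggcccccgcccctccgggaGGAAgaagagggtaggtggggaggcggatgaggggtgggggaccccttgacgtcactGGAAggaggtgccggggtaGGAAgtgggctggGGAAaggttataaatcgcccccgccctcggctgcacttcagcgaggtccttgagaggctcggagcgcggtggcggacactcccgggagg
Flt4, chr11:49609429-49609728, plus strand: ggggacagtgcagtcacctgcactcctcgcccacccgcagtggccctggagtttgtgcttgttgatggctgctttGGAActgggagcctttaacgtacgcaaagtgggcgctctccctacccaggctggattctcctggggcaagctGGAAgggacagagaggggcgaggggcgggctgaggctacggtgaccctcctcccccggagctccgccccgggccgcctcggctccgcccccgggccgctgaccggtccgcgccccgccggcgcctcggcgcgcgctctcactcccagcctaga
The Flt1 window held 4 matches and the Flt4 window 2.

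Flt1 (ENSMUSG00000029648, minus strand, chr5:147561604-147726011), the high-affinity trap for VEGF-A and VEGF-B, had 88 UMIs (277 CPM) in knockout and 7 UMIs (263 CPM) in WT endothelial-like nuclei. The log2 ratio was -0.02, and its interval of -1.03 to 1.43 leaves room for a 2-fold difference either way. In nuclei without lymphatic marker UMIs the levels were 636 CPM in the knockout from 45 UMIs and 612 CPM in WT from 4 UMIs. In lymphatic-marked nuclei they were 62.2 CPM in the knockout from 14 UMIs, and 0 UMIs in WT, where a limit of 3 UMIs is 220.3 CPM.

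Kdr (ENSMUSG00000062960, minus strand, chr5:75932827-75978458), the main signalling receptor of VEGF-A, had the fewest UMIs of the 4 receptors over all nuclei, 48 in the knockout and 27 in WT. It had 38 UMIs (119 CPM) in knockout and 5 UMIs (188 CPM) in WT endothelial-like nuclei, a log2 ratio of -0.77 (-2.00 to 1.05). Knockout nuclei with at least 2 lymphatic marker UMIs had 120.0 CPM from 27 UMIs, and those without any had 70.7 CPM from 5 UMIs, with overlapping intervals. The 24 knockout nuclei with 1 lymphatic marker UMI are in neither group. Kdr is also carried by lymphatic endothelium, so its level does not separate the sides of the cluster.

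Flt4 (ENSMUSG00000020357, plus strand, chr11:49609263-49652739), the receptor of VEGF-C and VEGF-D, had 182 UMIs (572 CPM) in knockout and 17 UMIs (638 CPM) in WT endothelial-like nuclei, a log2 ratio of -0.20 (-0.88 to 0.65). In lymphatic-marked nuclei it was at 782 CPM in the knockout and 808 CPM in WT. In knockout nuclei without lymphatic markers it was at 28.3 CPM from 2 UMIs, and 3 UMIs were found in the 9 such WT nuclei. After thinning, Flt4 was seen in 26.5% of knockout endothelial-like nuclei and in 7 of 28 WT ones, and in 0.018% and 0.224% of myonuclei. Unthinned, these shares were 39.0% and 40.0% in endothelial-like nuclei, at median depths of 897 and 556 UMIs, and 0.11% and 0.27% in myonuclei. Over all nuclei Flt4 was at 13.6 CPM in the knockout and 6.47 CPM in WT, a log2 ratio of 1.07 (0.67 to 1.51), beside endothelial markers at 196 and 149 CPM and lymphatic markers at 156 and 79.9 CPM. In Y-marked nuclei alone that ratio was 0.72 (-0.15 to 1.76), and Xist-marked knockout over Y-marked WT nuclei gave 2.68. The endothelial comparisons turned on how the clusters were drawn: with each library clustered on its own, the log2 ratios were 1.86 for Flt1, 2.12 for Kdr and 3.36 for Flt4. The WT class was then the 1 cluster of 671 nuclei, with pan-myonuclear markers at 105689 CPM and the repeat gene Gm10800 among its leading genes, against 35199 and 35224 CPM in the knockout clusters, so the 2 classes also differed in muscle transcripts.

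**Figure D4:**
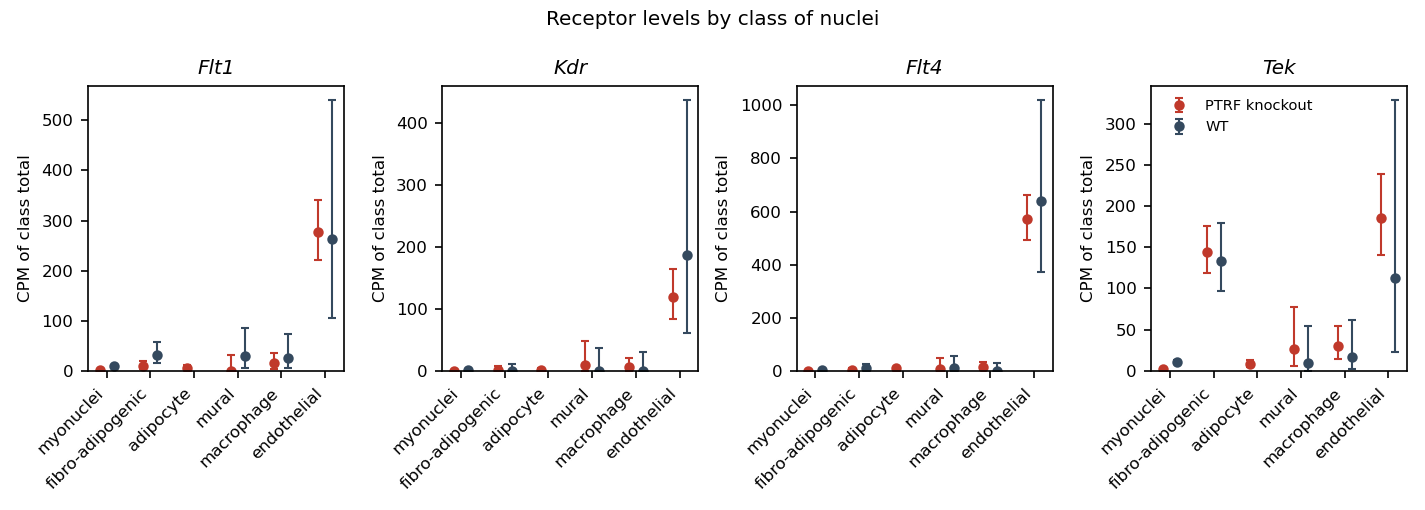
Levels of the 4 receptors in each class of nuclei, knockout left of WT, as CPM of the class total with exact 95% Poisson intervals; the 11 WT adipocyte-like nuclei are not drawn. Flt1, Kdr and Flt4 stand out in endothelial-like nuclei, while Tek is also at 145 CPM in knockout and 133 CPM in WT fibro-adipogenic-like nuclei.

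Tek (ENSMUSG00000006386, plus strand, chr4:94739289-94874976), the receptor of angiopoietin 1, was found in the stroma as well as in endothelium. Endothelial-like nuclei held 59 UMIs (185 CPM) in the knockout and 3 UMIs (113 CPM) in WT, a log2 ratio of 0.51 (-0.90 to 3.04). Fibro-adipogenic-like nuclei held 104 UMIs (145 CPM) in the knockout and 43 UMIs (133 CPM) in WT, a log2 ratio of 0.11 (-0.41 to 0.66) that became -0.18 under median-of-ratios scaling. Per 100 endothelial marker UMIs, the stroma held 37.1 Tek UMIs in the knockout and 42.2 in WT, against 3.81 and 2.46 in endothelial-like nuclei. Tek in the stroma was thus in another ratio to the endothelial markers than in the endothelium itself, in both libraries. For Flt1 the stroma held 2.50 per 100 in the knockout and 9.80 in WT, against 5.68 and 5.74 in endothelial-like nuclei. After thinning, Tek was seen in 8.39% of knockout and 6.14% of WT stromal nuclei, against 1.26% and 0.971% of macrophage-like nuclei. Unthinned, the stromal shares were 14.2% and 9.63% and the macrophage-like shares 2.93% and 1.49%.

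In myonuclei, UMIs of Flt1 and Tek were scarcer in the knockout. Flt1 had 12 UMIs (0.97 CPM) in the knockout and 69 UMIs (9.63 CPM) in WT, a log2 ratio of -3.27 (-4.33 to -2.42). Tek had 35 UMIs (2.82 CPM) in knockout and 77 UMIs (10.7 CPM) in WT myonuclei, a log2 ratio of -1.92 (-2.55 to -1.33). Endothelial markers in myonuclei summed to 40.2 CPM in the knockout and 99.2 CPM in WT, and lymphatic markers to 13.2 and 42.1 CPM. Knockout myonuclei held 2.41 Flt1 UMIs per 100 endothelial marker UMIs, and WT myonuclei 9.70. Whether these UMIs came from endothelial RNA in the droplets was not tested. Scaled to endothelial marker UMIs over all nuclei, with no clusters involved, the log2 ratio was -1.25 (-1.62 to -0.88) for Flt1, -0.71 (-1.02 to -0.40) for Tek and -0.29 (-0.999 to 0.46) for Kdr. These ratios do not describe endothelium alone. Endothelial-like nuclei held 88 of 128 Flt1 UMIs in the knockout and 7 of 141 in WT, and 59 of 227 and 3 of 172 Tek UMIs. Within endothelial-like nuclei, Flt1 was at 5.68 per 100 endothelial marker UMIs in the knockout and 5.74 in WT.

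Of the 9 genes, 8 had at least 20 UMIs over both libraries in myonuclei, Kdr being the exception with 3 in the knockout and 12 in WT. Of these 8, 5 were at least 2-fold lower in the knockout (Vegfb, Vegfc, Flt1, Flt4 and Tek) and 0 at least 2-fold higher, against 21.4% and 4.98% of the 14726 genes with at least 20 UMIs, and 26.4% in either direction. Gene length went with the ratio. Genes with at least 20 UMIs and a mean level of 1 to 100 CPM were split by length into 5 groups of like number. The median log2 ratio in myonuclei was between -0.14 and 0.08 in the 4 shorter groups. Among genes over 77.9 kb it was -1.71, with quartiles of -3.03 and -0.14. Vegfa and Angpt1 were above 100 CPM in myonuclei of both libraries, so the groups hold scarcer genes than these. By length, Vegfc (109 kb), Tek (136 kb), Flt1 (164 kb) and Angpt1 (252 kb) belong to that longest group. The first 3 lay between -3.27 and -1.92, all below that median, and Angpt1 lay above its upper quartile at 0.47. Vegfb (5.18 kb) is among the shortest genes, whose quartiles were -0.42 and 0.56, and Vegfa (15.4 kb) in a group with quartiles of -0.40 and 0.29, and both lay below them. Vegfd (29.3 kb) lay above its group's upper quartile of 0.28.

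**Figure D5:**
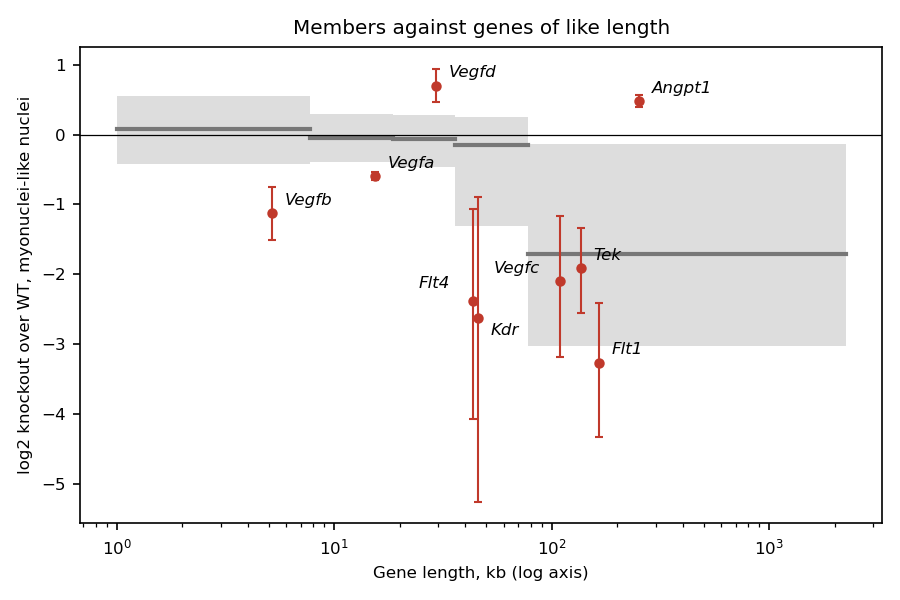
Log2 ratio of knockout over WT in myonuclei-like nuclei against gene length in kb (log axis) for the 9 genes, with exact 95% intervals; Kdr rests on 15 UMIs. Grey lines and bands are the median and quartiles of genes at a mean of 1 to 100 CPM in each of 5 length groups. Angpt1 stands at 0.47 where the longest group has a median of -1.71, but Angpt1 and Vegfa lie above 100 CPM.

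Over all nuclei all 9 genes were measured, 1 of them (Flt4) was at least 2-fold higher in the knockout and 0 at least 2-fold lower, against 8.51% and 21.1% of 17794 genes, and 29.7% in either direction. In the stroma 5 were measured and 1 (Vegfc) was at least 2-fold higher and 0 lower, against 14.5% and 6.61% of 6419 genes, and 21.1% in either direction. In endothelial-like nuclei 7 were measured, with 1 (Vegfc) at least 2-fold higher and 1 (Vegfa) lower, against 21.9% and 9.03% of 3266 genes (30.9% in all), and each of the 7 intervals reached 0. The Vegfc ratio there is against 0 WT UMIs and depends on the 0.5 UMI added. In mural-like and macrophage-like nuclei Vegfa and Angpt1 were measured, and neither was past 2-fold. Of all genes, 17.5% were at least 2-fold higher and 5.57% lower in mural-like nuclei (23.1% in all), and 14.6% higher and 4.24% lower in macrophage-like nuclei (18.8% in all).

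Regulators of Vegfa shared no direction in myonuclei. Of 10 listed genes of oxygen sensing and its coactivators, all were measured, 5 were higher and 5 lower, 1 past 2-fold, and the median log2 ratio was -0.10 against -0.08 over all genes. The gene past 2-fold was Egln3, a hypoxia-induced prolyl hydroxylase that marks HIF proteins for destruction, with 37.0 CPM in the knockout and 14.1 CPM in WT, a log2 ratio of 1.39 (1.08 to 1.72). It was also among the leading genes of cluster 3, which holds 789 knockout and 56 WT nuclei. Hif1a, the oxygen-labile HIF subunit, was at 52.7 CPM in the knockout and 37.1 CPM in WT (log2 ratio 0.51), and Epas1, its homologue, at 37.4 and 56.7 CPM (-0.60). Egln1, the main prolyl hydroxylase, had the lowest ratio of the list at -0.92. Ppargc1a, the coactivator that raises Vegfa in exercised mouse muscle, was at 313 CPM in the knockout and 305 CPM in WT (0.04).

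Of the 8 other ligands, 4 were measured in myonuclei, with 1 at least 2-fold higher and 3 lower, against 4.98% and 21.4% of all genes, and a median of -1.28. Pdgfb, which recruits pericytes, was highest at 2.10, with 129 UMIs in the knockout and 17 in WT, and Pdgfd lowest at -2.76, with 27 and 107 UMIs. Of the 7 co-receptors and partners, 5 were measured and all 5 were lower, 2 of them past 2-fold against 21.4% of all genes, with a median of -0.98. Nrp1 (145 kb), Nrp2 (115 kb) and Ptprb (114 kb) belong by length to the longest genes. The median there, from genes at 1 to 100 CPM, was -1.71, and Nrp1 was above that range. The part of endothelial RNA, whose markers were at 40.2 CPM in knockout and 99.2 CPM in WT myonuclei, was not tested. Nrp1, a co-receptor of Kdr, was at 109 CPM in the knockout and 157 CPM in WT myonuclei (-0.53), but at 256 and 137 CPM in the stroma (0.89). Nrp2, the partner of Flt4, was at 3.95 and 7.81 CPM in myonuclei (-0.98). Tie1, the companion of Tek and one of the endothelial markers, had 52 UMIs in the knockout and 7 in WT over all nuclei (2.09). Of the 4 inhibitors, 2 were measured in myonuclei and both were at least 2-fold higher, against 4.98% of all genes. Thbs1, a secreted inhibitor of vessel growth, had 17 UMIs in the knockout and 3 in WT, and the interval of its ratio, -0.08 to 4.12, included 0. Sema3a, a semaphorin that competes for Nrp1, was at 172 CPM in the knockout and 45.2 CPM in WT (1.93). Sema3a spans 477 kb, and the longest genes at 1 to 100 CPM had a median of -1.71. In the knockout Sema3a was above that range.

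The Notch list of sprouting vessels had 2 of 7 genes measured in myonuclei, with 1 higher and 1 lower and 0 past 2-fold. The list of signal carriers in endothelium had 4 of 6 measured in myonuclei, all 4 higher. Of these, 0 were at least 2-fold higher, against 4.98% of all genes, and the median was 0.47 against -0.08 over all genes. Klf4 was highest at 0.85 (-0.28 to 2.26) and Klf2 lowest at 0.13 (-0.87 to 1.24). Both of these intervals included 0, though not all 4 did. Over all nuclei 5 were measured, all higher and 3 past 2-fold, against 8.51% of all genes. The endothelial nitric oxide synthase Nos3, a target of Kdr signalling, had the highest ratio of that list over all nuclei, with 94 UMIs in the knockout and 20 in WT (1.48), beside the endothelial markers at 196 and 149 CPM. Endothelial-like nuclei held 28 of those Nos3 UMIs in the knockout and 0 in WT, so the values over all nuclei also mix classes. In endothelial-like nuclei 4 of the list were measured, 3 higher and 1 lower, with 1 at least 2-fold higher against 21.9% of all genes.

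Over 11 class levels, each a class of at least 50 nuclei in 1 library, the genes most like Vegfa among 7680 ranked included Gpt2 (Pearson's r 0.911) and Pdk4 (0.900), on log2 of CPM + 1. Those most like Flt1 were Dach1 (0.958), Pkhd1l1 (0.948) and Reln (0.944). Of endothelial-like nuclei only the knockout gave a point, and its cluster joined blood and lymphatic endothelium. Likeness to Flt1 therefore does not separate the sides of that cluster. Pkhd1l1 and Reln are lymphatic markers used to name the endothelial cluster, and the 11 points share libraries, depth and the muscle transcripts found in every class.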

How the data were processed

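Nuclei were isolated from quadriceps by mincing and homogenising in detergent buffer, filtering and spinning, and libraries were made with the Chromium v3.1 chemistry, per the labels' protocols. The authors deposited matrices of unnormalized UMI counts, 1 row a gene and 1 column a barcode, whose file headers name Cell Ranger 6.0.0. STAR, Seurat 4.1.1 and the builds mm10 and GRCm38 are named in the submitters' processing notes. The annotation, intron and strand settings and the barcode calling were not given in the sources used here; where introns are counted, long genes gain UMIs.

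A nucleus was kept with 200 genes or more and no more than 5% of its UMIs from the mitochondrial genome. Both libraries were clustered together with scanpy 1.11.5 on 2000 variable genes, without the 9 genes described, with 30 components, 15 neighbours, Leiden resolution 1 and seed 7, giving 19 clusters. No doublet caller was run, and 221 knockout and 2 WT nuclei with both Xist and Y-linked UMIs stayed in. Clusters took a name when their mean log2 marker score reached 2 on 3 or more markers, with a marker of that class among the 10 leading genes. Where no score reached 2, a cluster was myonuclei-like if its pan-myonuclear level was at least 0.5 of the median over clusters. Cluster 2 (26 knockout and 1823 WT nuclei) stayed unnamed, with repeat or long neuronal genes (Gm10800, Gm10801, Chl1) among its 10 leading genes. Cluster 14 (9 and 238) stayed unnamed too. Its adipocyte score of 1.97 missed the threshold, and 0 adipocyte markers were among its leading genes. The satellite-like cluster 7 (44 and 531) carried muscle transcripts at the level of myonuclei and was not compared.

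UMIs were summed per library and class. CPM carry exact Poisson intervals, shares exact Clopper-Pearson intervals and log2 ratios exact conditional binomial intervals, all at 95%, computed with scipy 1.17.1. A class with 0 UMIs was given a limit of 3 UMIs per library, which is below the upper end of its exact Poisson interval. Counts of genes past 2-fold use genes with at least 20 UMIs. The script was tested on simulated data. Alternatives changed the clustering, filters, depth, scaling, fibre calls and sex-marked subsets. The genes named are the 9, and from the pathway lists those with the highest or lowest ratio of a list and a fixed few. The genes and lists were chosen with earlier results of these data known. Of the genes named by likeness, 1 is not reported here.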

Additional observations from a re-analysis of the deposited data

Results flagged for a closer look

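The genotypes differed in opposite directions for Vegfc, depending on the class of nuclei. Its log2 ratio of knockout over WT was 2.50 in fibro-adipogenic-like nuclei, from 69 knockout and 5 WT UMIs, but -2.10 in myonuclei-like nuclei, from 13 and 33 UMIs, and -2.44 in Myh4-led myonuclei, from 7 and 18 UMIs. Each interval lay on its own side of 0, and the difference between the classes was not tested. In myonuclei, endothelial markers stood at 40.2 CPM in the knockout and 99.2 CPM in WT, and their part in the result was not tested. Vegfc is in the longest group of genes at 1 to 100 CPM, whose median log2 ratio was -1.71 in myonuclei (quartiles -3.03 and -0.14) and 0.06 in the stroma. Its ratio in myonuclei lay between those quartiles. Of the 69 stromal knockout UMIs, 27 were in Xist-marked and 8 in Y-marked nuclei. The parts of gene length and sex were not tested.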

How the results depend on the processing

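Over 20 results and 18 settings, 205 alternative values were computed. Of these, 156 stayed within the counting interval of the reported value, 47 moved beyond it and 2 changed sign from a value whose interval excluded 0. For the numbers of genes past 2-fold, a fixed fold limit took the place of the interval. The cause of these moves was not tested unless the setting names it. In myonuclei the Vegfa log2 ratio was -0.52 with the 9 genes kept among the variable genes, -0.47 at clustering resolution 0.5, -0.52 with each library clustered alone, -0.70 with at least 500 genes a nucleus, -0.51 after thinning, -0.67 on totals without Rn18s, Malat1 and mitochondrially encoded genes, -0.52 under median-of-ratios scaling and -0.47 with unnamed clusters added. The Angpt1 ratio there was 0.61 at resolution 0.5, 0.26 with at least 500 genes, 0.79 after thinning and 0.58 with unnamed clusters added. Holding the fibre mix at WT, chosen after seeing the data, gave -0.26 for Vegfa, -0.72 for Vegfb and 0.91 for Angpt1. With 3 UMIs required of the leading isoform, Myh4-led nuclei had -0.61 for Vegfa and 0.16 for Angpt1. Thinning gave -0.25 for Vegfa and 1.52 for Angpt1 in Myh1-led nuclei, 1.74 for Angpt1 in Myh2-led nuclei and 0.58 for Kdr per endothelial marker UMI.

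Y-marked nuclei alone gave -0.68 for Vegfa, -0.63 for Vegfb and 0.10 for Angpt1 in myonuclei. They also gave the 2 sign changes counted above, 0.023 for Vegfa in Myh1-led nuclei and -0.0026 for Angpt1 in Myh4-led nuclei. They also gave -2.36 (-4.52 to 3.57) for Kdr and -1.48 (-3.11 to 1.91) for Flt4 in endothelial-like nuclei, and -0.88 for Flt1 per endothelial marker UMI. The Kdr and Flt4 values rest on 1 and 2 WT UMIs. Xist-marked knockout against Y-marked WT nuclei gave -0.40, -0.21 and 0.58 for Vegfa, Vegfb and Angpt1 in myonuclei, -0.32 for Vegfa in Myh1-led nuclei, and 0.023, 0.72 and 0.87 for Angpt1 in Myh4-, Myh1- and Myh2-led nuclei. The same contrast gave 0.72 for Tek in the stroma, and -2.23 for Flt1 and -1.14 for Tek per endothelial marker UMI. In endothelial-like nuclei it gave -2.37 (-4.71 to 3.59) for Kdr and -1.16 (-2.82 to 2.24) for Flt4, from the same 1 and 2 WT UMIs.

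Each library clustered alone gave 1.86 for Flt1, 2.12 for Kdr and 3.36 for Flt4 in endothelial-like nuclei, the WT class then being 671 nuclei rich in muscle transcripts, and nuclei picked by endothelial marker UMIs in place of clusters gave 1.41 for Flt4. In place of 734 genes at least 2-fold higher and 3149 lower in knockout myonuclei, 370 and 667 were counted at 100 UMIs or more, and 1622 and 14686 with no minimum beyond 1 UMI. A further 7 alternatives gave no value because WT had 0 UMIs: Kdr in endothelial-like nuclei at 500 genes, and Vegfc in the stroma and Flt1 and Tek in endothelial-like nuclei under both sex-marked settings. Median-of-ratios scaling lowers every log2 ratio by 0.28 in the stroma, 0.31 in mural-like, 0.27 in macrophage-like and 0.33 in endothelial-like nuclei. No paired analysis was possible because each genotype has 1 library. The 35 WT endothelial-like nuclei limit what could be detected there.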
